A study of Rattus norvegicus with 12 samples.

Results

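The 8 genes described here are Bnip3, Bnip3l, Fundc1, Higd1a, Fam162a, Ndufa4l2, Pdk1 and Pdk3. Their products are mitochondrial proteins, listed together as targets of the hypoxia-inducible factors (HIF) or as mitophagy receptors. The 8 genes were found by symbol among the 30562 genes of the count table. Where a symbol was repeated, the gene with the highest total count was to be chosen by that total, and 0 of these symbols were repeated. The list itself was proposed with results of the same comparison known, so its membership carries no weight of its own. In 6 libraries per group, mild-hypo-OPCs, oligodendrocyte precursor cells (OPCs) cultured at an FiO2 of 5%, were compared with standard OPCs cultured in room air. Both groups were primary cultures from the cortex of wild-type newborn Sprague-Dawley rats. Microglia were shaken off first, and OPCs were taken from the cells that a longer shake released. The OPCs were kept in medium with FGF-2 and PDGF-AA. The labels give a hypoxic exposure of 6 hours, whereas the methods give it in days, and the study's legend counts fewer biological replicates per group (n = 3) than the 6 libraries used here, with nothing that ties a library to a replicate. The p-values and every n = 6 count libraries. The p-values therefore measure the spread between these libraries, which may be technical.

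HIF is a transcription factor whose alpha subunit is hydroxylated and degraded while oxygen is plentiful and accumulates when oxygen is scarce. The proteins on the list are known to do several jobs. BNIP3, BNIP3L (NIX) and FUNDC1 sit in the outer membrane and bind LC3 or GABARAP proteins to mark mitochondria for mitophagy. Hypoxia is known to act on FUNDC1 through dephosphorylation, and induction of its transcript by HIF is not assumed here. HIGD1A and NDUFA4L2 act at the respiratory chain. Pyruvate dehydrogenase kinases such as PDK1 and PDK3 phosphorylate pyruvate dehydrogenase and so restrain the entry of pyruvate into the citric acid cycle. FAM162A (HGTD-P) is a mitochondrial protein tied to hypoxic cell death.

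HIF binds DNA at short cores within hypoxia response elements, and stretches of 120 bases upstream of 4 members with a promoter entry and enough counts to be tested are shown because these cores lie in them. The sequences are from RefSeq, build GRCr8, printed 5′ to 3′ in the direction of the gene, and end at the outermost annotated start of the gene. Capitals mark ACGTG or GCGTG on either strand, so that CACGT and CACGC are the same cores read on the opposite strand, and neighbouring matches can overlap.
Bnip3, chr1:203154963-203155082, minus strand: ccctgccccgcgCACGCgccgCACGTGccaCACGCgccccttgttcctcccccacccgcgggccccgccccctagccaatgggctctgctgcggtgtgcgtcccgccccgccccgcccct
Higd1a, chr8:130400889-130401008, minus strand: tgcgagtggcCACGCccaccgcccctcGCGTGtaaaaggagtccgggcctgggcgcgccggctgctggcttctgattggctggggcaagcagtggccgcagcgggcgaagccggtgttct
Fam162a, chr11:78186140-78186259, plus strand: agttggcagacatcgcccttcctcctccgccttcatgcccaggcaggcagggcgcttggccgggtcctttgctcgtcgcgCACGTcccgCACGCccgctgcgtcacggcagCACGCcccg
Pdk3, chrX:62547372-62547491, minus strand: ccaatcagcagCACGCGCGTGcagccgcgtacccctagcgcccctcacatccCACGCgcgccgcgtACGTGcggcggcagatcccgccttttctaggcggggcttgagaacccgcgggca

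In the 250 bases before the start given in the promoter table, which for Fam162a and Pdk1 lies inside the gene by 41 and 50 bases, either core was found in 5 of the 6 members with an entry, and 36.7% of all 33469 promoters held one as well. ACGTG was in 16.6% of promoters and GCGTG in 25.9%, each counted on both strands. Bnip3 had 4 matches, of which the ACGTG pair overlaps on the 2 strands 94 to 99 bases before that start. Higd1a had 3 matches, Fam162a and Pdk3 had 5 each, Pdk1 had 2 and Ndufa4l2 had 0. A match describes letters and not a bound site.

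None of the 8 genes was called higher in mild-hypo-OPCs, and 4 of them were called lower. CPM values given here are counts scaled to a library of 1000000 counts after TMM adjustment, whereas the filter used CPM before that adjustment. Of the 6 members above 10 CPM in at least 1 library by that filter, Bnip3, Bnip3l, Higd1a and Fam162a fell (edgeR quasi-likelihood test, Benjamini-Hochberg adjusted over 8938 genes at 0.05). Fundc1 and Pdk3 did not pass the test. The 2 others, Pdk1 and Ndufa4l2, had too few counts for that filter. By the same rule 17.0% of all tested genes were called lower and 7.0% higher. The median log2 fold change of the 6 tested members was -0.48 and that of all tested genes was near 0 (-0.0031). At an unadjusted p under 0.05 the members again numbered 0 higher and 4 lower, and limma-voom and DESeq2 also called 0 higher and 4 lower.

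The scale of these values rests on TMM factors that differ between the groups. The libraries of mild-hypo-OPCs held 4111669 to 9022324 counts and those of standard OPCs 1356079 to 2797513, and ribosomal RNA genes took 17.4% to 25.25% and 23.87% to 38.42% of the counts. Depth and condition cannot be told apart, since the totals do not overlap. With library size only, the median of all genes moved to 0.43, and relative to it the members kept differences close to those on the TMM scale. On that scale 1 member, Higd1a, was called lower and 0 higher, beside 405 and 5515 of all 8938 tested genes. With the log2 total count as a covariate 0 members were called in either direction, beside 43 of all genes lower and 0 higher. With every library thinned to the smallest total, and TMM, the same 4 were called lower: Bnip3 at -0.72 (edgeR adjusted p = 0.000138), Bnip3l at -0.43 (0.00593), Higd1a at -0.90 (5.88e-05) and Fam162a at -0.47 (0.0246).

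**Figure D1:**
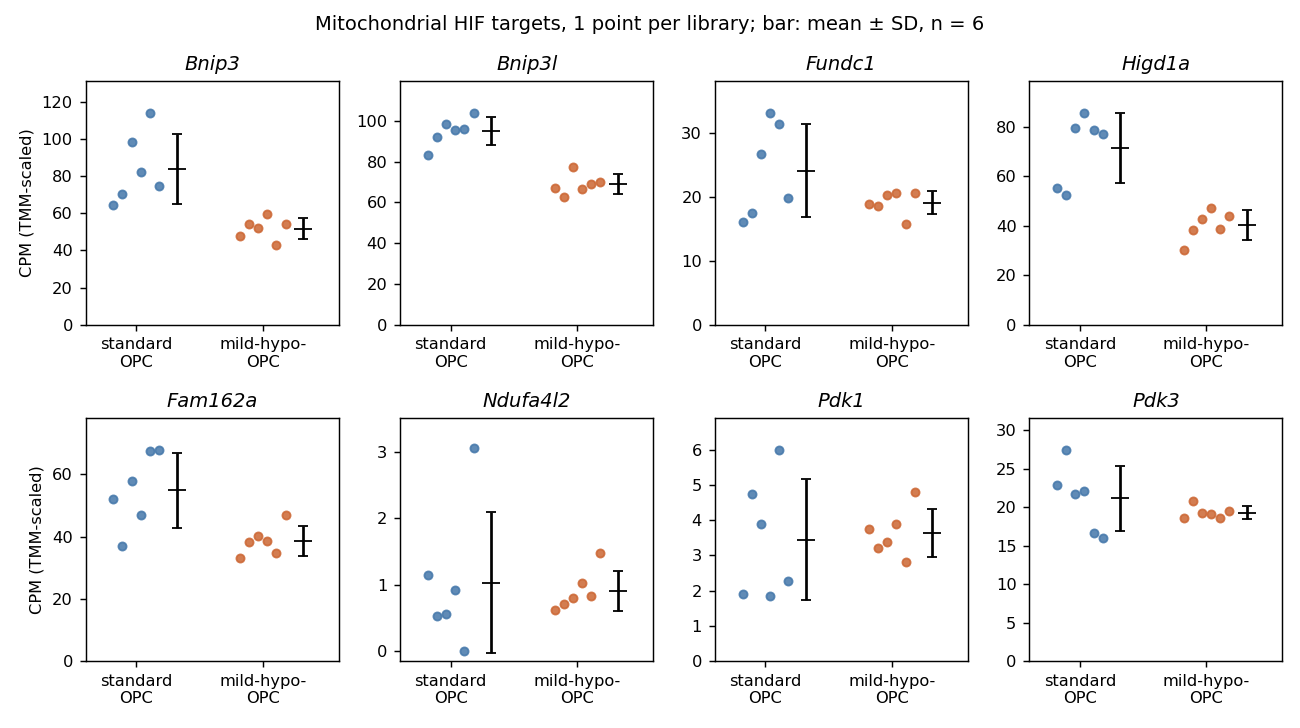
Level of each member in every library, in CPM on TMM-scaled library sizes (vertical axes, scaled separately by gene), for standard OPCs and mild-hypo-OPCs; black bars are the mean ± SD of 6 libraries. On this scale Bnip3, Bnip3l and Higd1a do not overlap between groups, Fam162a overlaps by 1 standard OPC library, and the other 4 overlap widely. A separation in this direction was found in 5.4% of the tested genes.

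Bnip3 (ENSRNOG00000017243), the BH3-like receptor that recruits autophagosomes to mitochondria in hypoxia, was lower in mild-hypo-OPCs. Its level ranged from 43.0 to 59.4 CPM with a median of 53.2 in mild-hypo-OPCs, and from 64.2 to 114 CPM with a median of 78.4 in standard OPCs. On the TMM scale all 6 mild-hypo-OPC libraries lay below all 6 standard OPC libraries. A separation in this direction was found in 5.4% of the tested genes. Without TMM factors the groups overlapped, with 290 of 4111669 counts in mild-hypo-OPC replicate 4 beside 133 of 2295080 in standard OPC replicate 2. The means were 51.7 ± 5.72 and 83.9 ± 18.8 CPM (SD, n = 6 each), and the fitted log2 fold change was -0.69 (SE 0.12, edgeR adjusted p = 0.000554), a level that fell by 38.1% in the fit. It rested on 259 to 456 counts per library against 89 to 177. With library size only the log2 fold change was -0.25 (edgeR adjusted p = 0.081), so the direction held and the call did not.

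Bnip3l (ENSRNOG00000009820), its close relative, which removes mitochondria from maturing red blood cells, was the member with the smallest standard error. It ranged from 62.7 to 77.5 CPM (median 68.1) in mild-hypo-OPCs and from 83.4 to 104 CPM (median 95.8) in standard OPCs. The groups did not overlap on the TMM scale. The log2 fold change was -0.45 (SE 0.080, edgeR adjusted p = 0.000478), from 94.9 ± 6.87 to 68.9 ± 4.97 CPM (SD, n = 6 each). This change depended on the scaling: with no TMM factor the pooled CPM was 78.5 in mild-hypo-OPCs and 80.0 in standard OPCs, and with library size only the log2 fold change was -0.02 (edgeR adjusted p = 0.888). In replicates 1 to 3 alone it was -0.38 with an adjusted p of 0.0854 in edgeR.

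Fundc1 (ENSRNOG00000003470), the receptor that hypoxia is known to activate through dephosphorylation, did not pass the test. It measured 15.8 to 20.7 CPM (median 19.6) in mild-hypo-OPCs and 16.1 to 33.1 CPM (median 23.3) in standard OPCs, and 3 of the 6 standard OPC libraries lay above every mild-hypo-OPC library while the others overlapped. The log2 fold change was -0.28 (SE 0.16, edgeR adjusted p = 0.206), with a 95% interval from -0.60 to 0.03, and it turned to 0.14 with library size only. The value of Bnip3l lies inside that interval and that of Bnip3 outside it, and the difference between receptors was not tested.

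Higd1a (ENSRNOG00000019428), an inner membrane protein that binds cytochrome c oxidase, had the lowest log2 fold change of the members. It ranged from 30.2 to 47.3 CPM (median 40.8) in mild-hypo-OPCs and from 52.3 to 85.6 CPM (median 77.9) in standard OPCs. On the TMM scale all mild-hypo-OPC libraries were below all standard OPC libraries, as in 5.4% of the tested genes. Without TMM factors the groups overlapped, with 231 of 4111669 counts in mild-hypo-OPC replicate 4 beside 99 of 2295080 in standard OPC replicate 2. With library size only the log2 fold change was -0.37 (edgeR adjusted p = 0.0198). The means were 40.2 ± 5.96 and 71.4 ± 14.0 CPM (SD, n = 6 each), and the fitted log2 fold change of -0.81 (SE 0.13, edgeR adjusted p = 0.000283) means a level that fell by 43.0% in the fit, and 4.74% of the tested genes had a lower value. Standard OPC libraries 1 and 2 were the 2 lowest of their group, as they also were for Bnip3 and Fundc1.

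Fam162a (ENSRNOG00000002255) was also lower, from 54.8 ± 12.1 to 38.7 ± 4.83 CPM (SD, n = 6 each), with an overlap. Its level was 33.1 to 46.8 CPM (median 38.5) in mild-hypo-OPCs and 37.0 to 67.9 CPM (median 54.9) in standard OPCs. Of the standard OPC libraries 5 lay above every mild-hypo-OPC library, and replicate 2, at 37.0 CPM, lay among them. The log2 fold change was -0.50 (SE 0.13, edgeR adjusted p = 0.00822). It kept its sign at -0.07 with library size only (edgeR adjusted p = 0.68), and in replicates 1 to 3 alone the adjusted p rose to 0.185 in edgeR.

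Ndufa4l2 (ENSRNOG00000031851), a subunit paralog that is known as one of the strongest HIF-1 targets in many cells, was close to the limit of detection. Between 4 and 8 counts were found in each library of mild-hypo-OPCs, 33 in all, and between 0 and 4 in each of standard OPCs, 10 in all. Pooled over the group and with no TMM factor this was 0.995 CPM (exact Poisson 95% interval 0.685 to 1.40) in mild-hypo-OPCs, beside 0.839 CPM (0.403 to 1.54) in standard OPCs. Without the filter on low counts its log2 fold change was -0.11 (SE 0.57, edgeR adjusted p = 0.918), with an interval from -1.23 to 1.0. That interval holds changes in either direction, and it is not a limit of detection: on so few counts larger changes could also be missed.

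The kinases gave no call. Pdk3 (ENSRNOG00000012513) measured 18.6 to 20.8 CPM (median 19.2) in mild-hypo-OPCs and 16.0 to 27.5 CPM (median 21.9) in standard OPCs, and the narrow mild-hypo-OPC range lay inside the wide range of standard OPCs. Its log2 fold change was -0.16 (SE 0.12, edgeR adjusted p = 0.381), with an interval from -0.40 to 0.08, and 0.28 with library size only. Pdk1 (ENSRNOG00000001517), the isoform most often used as a HIF-1 marker, rested on few counts, between 17 and 36 in libraries of mild-hypo-OPCs and no more than 9 in those of standard OPCs. Without the filter its log2 fold change was 0.11 (SE 0.31, edgeR adjusted p = 0.849), and the interval from -0.51 to 0.72 holds changes in either direction.

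Among paralogs that are not on the list, Pdk2, the kinase isoform expressed in most tissues, ran from 27.6 to 41.3 CPM (median 36.9) in mild-hypo-OPCs and from 19.9 to 29.1 CPM (median 25.5) in standard OPCs. Of the mild-hypo-OPC libraries 5 lay above every standard OPC library. Its mean rose from 25.04 ± 4.06 to 35.5 ± 4.98 CPM (SD, n = 6 each), a log2 fold change of 0.48 (SE 0.13, edgeR adjusted p = 0.0094). It was not called in replicates 1 to 3 or with the log2 total count as a covariate (0.32, edgeR adjusted p = 0.851). Ndufa4, the cytochrome c oxidase subunit that is the paralog of Ndufa4l2, fell by 0.93 on the log2 scale (SE 0.13, edgeR adjusted p = 0.000184), and Fundc2 and Higd2a fell by 0.71 and 0.62. Ndufa4 was still called lower with library size only, whereas Fundc2 and Higd2a kept a negative sign and lost the call. Pdk4 had 3 counts in mild-hypo-OPCs and 1 in standard OPCs, and no gene with the symbol Higd1b was found among the counts.

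**Figure D2:**
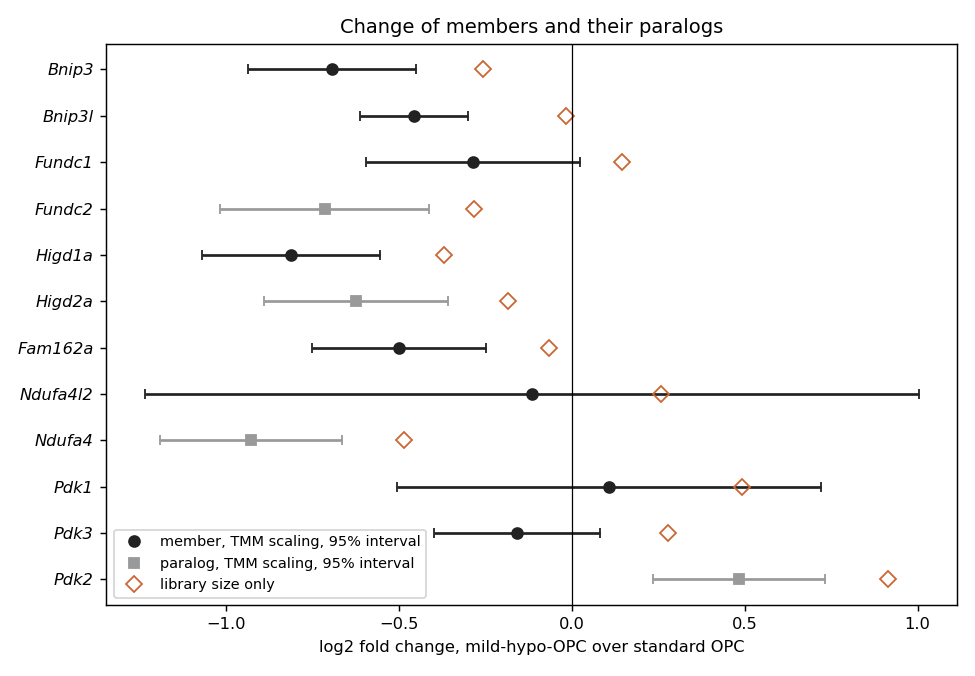
Log2 fold change of mild-hypo-OPCs over standard OPCs (horizontal axis) of the 8 members (circles) and 4 paralogs (squares) on the TMM scale with 95% intervals, and with library size only (open diamonds). The intervals of Bnip3, Bnip3l, Higd1a and Fam162a lie below 0 and that of Pdk2 above 0, and library size only places every gene further right, turning Fundc1, Pdk3 and Ndufa4l2 positive.

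Ratios of counts between 2 genes of a library do not depend on the scaling, and are compared here between groups only, with no test. The log2 ratio of Pdk3 to Pdk2 was -0.86 ± 0.24 in mild-hypo-OPCs and -0.25 ± 0.12 in standard OPCs (SD, n = 6 each), with no overlap, so that Pdk2 took a larger share of the pair in every mild-hypo-OPC library. The ratio of Fundc1 to Fundc2 was -0.03 ± 0.094 and -0.45 ± 0.24, again with no overlap, and in the opposite direction. The ratio of Bnip3 to Bnip3l differed by -0.22 and that of Higd1a to Higd2a by -0.19, both with overlapping libraries. Pdk1 against Pdk3 differed by 0.21 and overlapped, on the few counts of Pdk1 given above. Pdk1 against Pdk2 differed by -0.40 and Ndufa4l2 against Ndufa4 by 0.76, both with overlap and on few counts. How often pairs of other genes separate the groups was not counted, so the separations describe these pairs only.

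**Figure D3:**
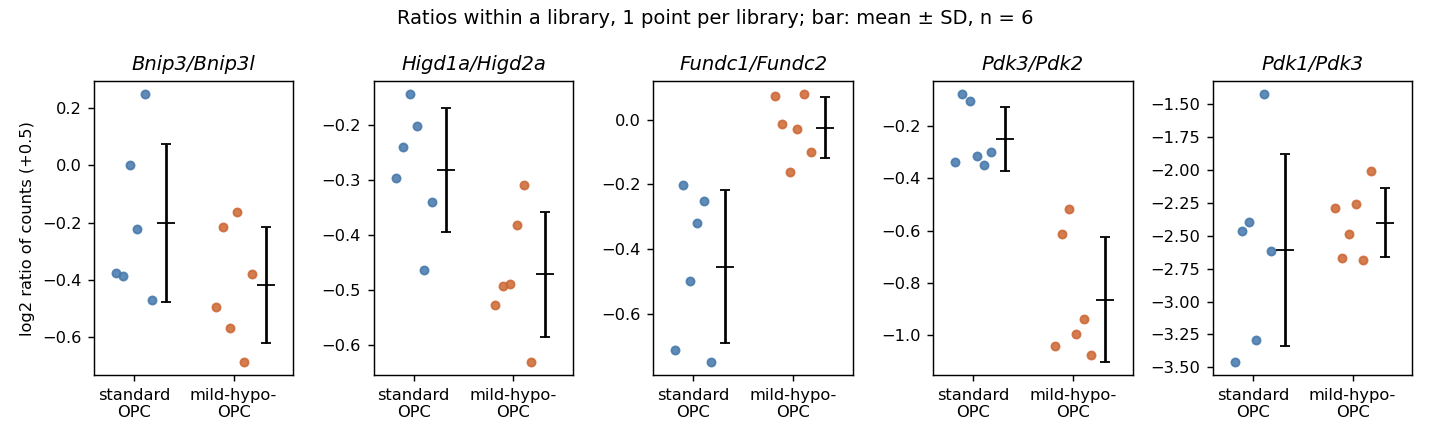
Log2 ratio of the counts of 2 genes, with 0.5 added to each (vertical axes), in each library of standard OPCs and mild-hypo-OPCs; black bars are the mean ± SD of 6 libraries. Only the pairs Fundc1/Fundc2, higher in mild-hypo-OPCs, and Pdk3/Pdk2, lower in mild-hypo-OPCs, separate the groups among the 5 pairs drawn.

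Within the groups the members varied together in part. After subtraction of the group means, Pearson's r over the 12 libraries was 0.81 between Bnip3 and Fundc1, 0.73 between Higd1a and Fundc1, and 0.66 between Bnip3 and Higd1a. Bnip3l was less tied to the others, and Pdk3 was negatively related to all 5, from -0.32 with Fundc1 to -0.77 with Fam162a. All points share the libraries and their depth, so these values describe the libraries and carry no test. The genes whose deviations were most like those of a member were Fam136a, Pfdn4 and Ap1s1 for Bnip3 (r from 0.91 to 0.92), Rpl31l4, Fv1 and Rlbp1 for Bnip3l (0.85 to 0.88), and Hagh, AABR07015507.1 and Mvb12a for Higd1a (0.94 to 0.97). They were Fam104a, Prdx1l1 and Hspa14 for Fam162a (0.96 to 0.98), Pdcd10, Polr1h and Ift20 for Fundc1 (0.94 to 0.98), and Stim1, Cdr2l and Mavs for Pdk3 (0.91 to 0.93). These names depended on the measure: with Spearman's rank correlation, 0 of the 3 genes were again among the top 3 for Bnip3l and Higd1a, 1 of 3 for Bnip3, Fam162a and Fundc1, and 2 of 3 for Pdk3.

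**Figure D4:**
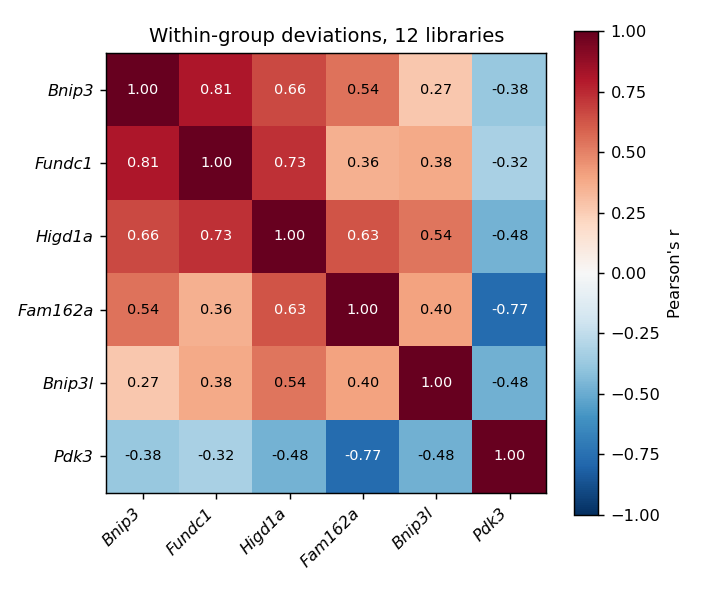
Pearson's r between the 6 tested members over 12 libraries, on log2 CPM after subtraction of each group's mean; colour runs from -1 (blue) to 1 (red). Bnip3, Fundc1 and Higd1a form the tightest block, and Pdk3 is negative with each of the others.

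Of 26 mitophagy genes outside the list 24 were tested, and 6 fell, 0 rose and 18 did not pass the test, with a median log2 fold change of -0.03, where 17.0% of all genes fell. The largest fall was that of Gabarapl2, an LC3-family protein to which the receptors bind, at -0.99, followed by Fundc2 and by Map1lc3b, the LC3 that coats the autophagosome, at -0.53. With library size only 14 of the 24 were called higher and 1, Gabarapl2, lower, and Fkbp8, Phb2 and Gabarap turned positive. Over all 8938 genes that setting called 5515 higher and 405 lower. Upper-quartile scaling called 3 higher, and 0 were called lower in replicates 1 to 3 or with the log2 total count as a covariate. Pink1, the kinase of the ubiquitin-dependent route, was at -0.22 (SE 0.11, edgeR adjusted p = 0.157).

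Around pyruvate dehydrogenase, 11 of 12 listed genes were tested, of which 1 rose and 4 fell, with a median of -0.06. Of all genes 7.0% were called higher and 17.0% lower. The gene of the list that rose was Pdk2. The largest falls were those of Mpc2 at -1.22 and Mpc1 at -0.85, the subunits of the mitochondrial pyruvate carrier, and of Pdhx, the E3-binding subunit, at -0.37. With library size only 6 were called higher and 2 lower, the carrier subunits at -0.78 and -0.40, and Pdhx turned to 0.06. That setting called 5515 of all 8938 genes higher. In replicates 1 to 3 the calls were 0 higher and 1 lower, and with the covariate 0 in either direction.

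Respiratory chain isoforms and assembly partners tied to hypoxia stood lower, with 6 of 8 tested genes called lower, 0 higher, and a median of -0.74. Of all genes 17.0% were called lower. Ndufa4, Cox4i1, Higd2a and Iscu, all called, span 925 to 7169 bases, and Cox7a2 and Cox7a1 13982 and 22668. Among all genes spanning up to 8497 bases 37.3% were called lower, and the part of span here was not tested. Cox4i2, also listed, was below the filter, with 6 counts in mild-hypo-OPCs and 1 in standard OPCs. Cox7a2, Ndufa4 and Cox4i1, all subunits of or near cytochrome c oxidase, were at -1.36, -0.93 and -0.86. All 3 stayed called with library size only, where 1 gene of the list was called higher. With the covariate all 3 lost their calls and Cox4i1 turned to 0.155. The 1 gene of the list then called lower was Cox7a1, at -3.73 (edgeR adjusted p = 0.0446). Cox7a1, the muscle-type subunit, was at -1.96 but ran from 1.84 to 71.5 CPM among standard OPC libraries, was not called by limma-voom or DESeq2 and changed sign in replicates 4 to 6. Genes of the BCL2 family and partners, the proteins among which BNIP3 and BNIP3L were first described, gave 0 higher and 4 lower of 12. Bax at -0.90, Bad at -0.68 and Rheb at -0.67 fell most, where 17.0% of all genes were called lower. With library size only 6 of the 12 were called higher, beside 5515 of all 8938 genes, and 1, Bax, lower. Bad and Rheb lost their calls there (edgeR adjusted p = 0.143 and 0.111) and Vdac3 turned positive. In replicates 1 to 3 the list had 2 called lower and with the covariate 0.

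General markers of mitochondrial content gave 8 lower and 0 higher of 19 tested, with a median of -0.13, where 17.0% of all genes were called lower. Hspe1, Tomm20 and Chchd3 fell most, at -0.85, -0.79 and -0.64, and with library size only Chchd3 lost its call (edgeR adjusted p = 0.0848). On that scale 10 of the 19 were called higher and 2 lower, beside 5515 and 405 of all 8938 genes, and Tomm22 and Slc25a5 turned positive. In replicates 1 to 3 the list had 1 called lower and with the covariate 0. The other 11 did not pass the test, among them Cs, the citrate synthase used as a measure of mitochondrial mass, at 0.08. In bulk libraries fewer mitochondria per cell, fewer cells of a type and less RNA per cell cannot be told apart.

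Among HIF targets with other jobs, 20 of 31 listed genes were tested, and 4 rose and 0 fell, with a median of 0.11. Hmox1, which degrades haem, rose by 0.63 on the log2 scale, P4ha1, a collagen prolyl hydroxylase, by 0.47, and Ero1a, an oxidase of the endoplasmic reticulum, by 0.43. The count of 4 was 2 without standard OPC replicate 3, 2 without standard OPC replicate 4, 1 in replicates 1 to 3 and 0 with the log2 total count as a covariate, where Ero1a turned to -0.13. With library size only, which moves all genes up, 17 of the 20 were called higher, beside 5515 of all 8938 genes. The 7.0% of all genes called higher stand against 4 of 20 here and 0 of 6 among the members, and the difference between the lists was not tested.

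The change of a gene also followed its span from first to last annotated base, and the members were read against that. Spans were known for 95.59% of the tested genes. Of 5 classes of equal size, the class of the shortest spans (up to 8497 bases) had 37.3% of its genes called lower, with a median log2 fold change of -0.26, and the classes that followed had 21.1%, 11.4%, 6.14% and 5.56%. From shortest to longest, 4.21%, 5.79%, 7.61%, 10.4% and 7.72% were called higher. The HIF targets with other jobs that were called higher, P4ha1, Ero1a, Hmox1 and Eno1, span 111090, 35400, 27459 and 11386 bases. Higd1a, Bnip3 and Fundc1, with spans of 9231, 17185 and 16657 bases, fall in class 2, where the median was -0.05. Bnip3l and Fam162a fall in class 3, where it was 0.02, and Pdk3, with 66837 bases, in class 4. With the trend on span removed, the log2 fold change was -0.66 for Higd1a, -0.63 for Bnip3, -0.50 for Fam162a and -0.43 for Bnip3l, each with the sign it had before. The part of span in the results was not tested otherwise.

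**Figure D5:**
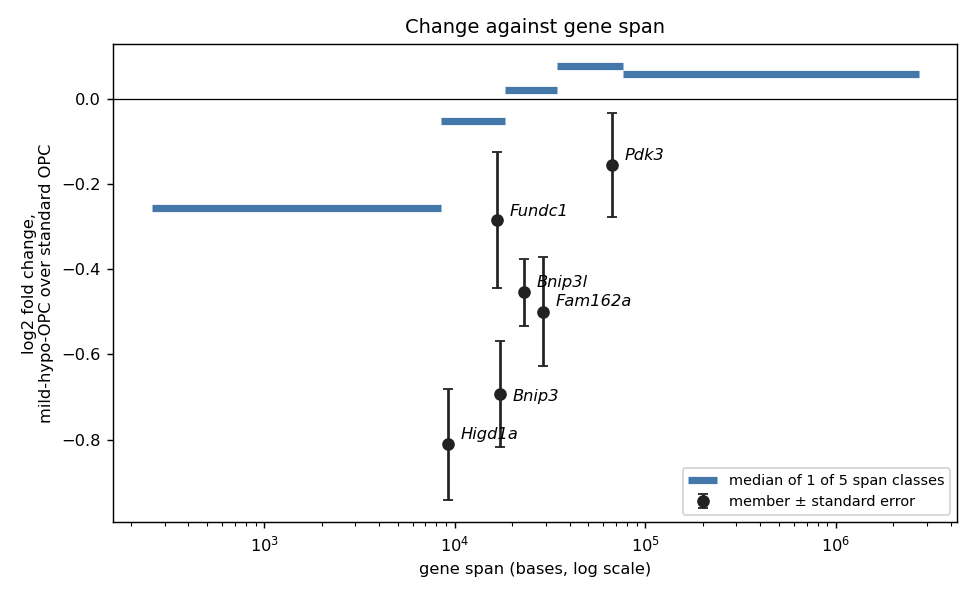
Log2 fold change of mild-hypo-OPCs over standard OPCs on the TMM scale (vertical axis) against gene span in bases (horizontal axis, log scale) for the 6 tested members, with their standard errors, and the medians of the 5 classes of tested genes by span (blue bars). All 6 members lie below the median of their class, and with library size only Fundc1 and Pdk3 turn positive.

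The libraries carried the markers of the lineage, with 7 of 8 OPC markers tested and a summed level of 3726 to 4326 CPM in mild-hypo-OPCs and 3083 to 3827 CPM in standard OPCs. Oligodendrocyte markers summed to 12410 to 13890 CPM against 8535 to 12310 CPM, with 4 of 7 called higher, and neuronal markers to 134 to 153 CPM against 76.0 to 115 CPM, with 1 of the 4 tested called higher. Microglial markers summed to 47.5 to 65.8 CPM against 22.1 to 49.6 CPM, with 2 of the 4 tested called higher, 1 lower, and Cx3cr1 and Itgam at 0 in some libraries. Astrocyte markers summed to 815 to 947 CPM against 747 to 847 CPM, with 2 of the 6 tested called higher. Endothelial and mural markers summed to at most 2.29 CPM, and each of the 7 was at 0 in some libraries. The part of these differences in cell content in the members' values was not tested.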

How the data were processed

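Bulk RNA-seq counts of 12 libraries, 6 per group, were used. Per the labels and the methods, the authors trimmed reads with Trimmomatic 0.36, checked them with FastQC 0.11.9, aligned them with STAR 2.7.9a (build mRatBN7.2), and obtained gene estimates from RSEM 1.3.3. The deposited table holds whole-number counts, not normalized. How estimates became whole numbers and whether counting used strand are not given in the sources used here, so overlapping, antisense and near-identical genes may share reads. Bnip3-ps3, a pseudogene, had 0 counts.

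The 8938 genes reaching more than 10 CPM, before TMM factors, in 1 library or more were tested in edgeR 4.0.16 (R 4.3.3). The fit used TMM, glmQLFit and glmQLFTest and Benjamini-Hochberg adjustment at 0.05. limma 3.58.1 (voom) and DESeq2 1.42.0, scaling, filters, subsets of libraries, a replicate block, thinning, removal of ribosomal RNA genes, a span trend and log2 total count were alternatives. Standard errors follow from the F statistic. The 95% intervals of fold changes use the normal distribution and are narrower than the F test would give. The limits of counts cover counting error only. Members below the filter took values from the fit without it. Members and lists were chosen with earlier results of these data known. Named genes are the members and their paralogs, the called genes of each list up to the 3 of largest change in each direction, and the 3 genes most like each member; others were named after their values were seen. Spans and promoters came from RefSeq GRCr8 by symbol. On simulated counts of this comparison over 8938 genes, 96 of 100 genes changed by 1 on the log2 scale and 50 of 100 changed by 0.5 were recovered, with 11 false calls among 157. The simulation took the TMM-scaled library sizes as true and changed equal numbers of genes up and down. It therefore does not measure errors that come from scaling, depth or span. No library repeated another: within groups, chi-square per degree of freedom was 3.39 or more. Python 3.11.15, SciPy 1.17.1, pandas 2.3.3 and matplotlib 3.10.9 were used.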

Additional observations from a re-analysis of the deposited data

How the results depend on the processing

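Under every alternative 0 members were called higher. Under library size only 1 was called lower, in replicates 1 to 3 only 2 (Bnip3 and Higd1a), and with the log2 total count as a covariate 0, where Bnip3 was at -0.30 (edgeR adjusted p = 0.856), Bnip3l at -0.33, Higd1a at -0.01 and Fam162a at -0.10. All other alternatives called 4 lower, as did each fit without 1 library. Replicate numbers did not pair the libraries (same-number r from -0.276 to 0.296), and with the replicate block 4 were called lower and 0 higher.

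Without single libraries, log2 fold changes ran from -0.77 to -0.59 for Bnip3, -0.49 to -0.40 for Bnip3l, -0.89 to -0.70 for Higd1a, -0.60 to -0.42 for Fam162a, -0.41 to -0.19 for Fundc1, -0.22 to -0.07 for Pdk3, -0.08 to 0.31 for Pdk1 and -0.35 to 0.41 for Ndufa4l2. Signs of uncalled members turned as follows, and the cause was not tested: Fundc1 to 0.14 with library size only and with the covariate, Pdk3 to 0.28 with library size only and 0.0873 in replicates 4 to 6, Pdk1 to -0.0764 without standard OPC replicate 1, -0.14 when thinned and -0.02 with the span trend removed, and Ndufa4l2 to 0.26, 0.88 and 0.06 with library size only, the covariate and the span trend removed, 0.02 without mild-hypo-OPC replicate 1 and 0.41 without standard OPC replicate 6. Of 300 counts of list genes under alternatives, 263 stayed within 1.5 times and 37 moved. Over all genes, library size only called 5515 higher and 405 lower, upper-quartile scaling 1136 and 1255, replicates 1 to 3 alone 53 and 343, and the covariate 0 and 43, against 626 and 1520. Ndufa4l2 and Pdk1 rest on at most 9 counts in any standard OPC library.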

Other observations

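Ak4, a matrix adenylate kinase known as a HIF target, was singled out after its values were seen. It fell below the filter on low counts and stands in the list of other HIF targets. It had 12 to 23 counts in each mild-hypo-OPC library, 104 in all, and 0 to 3 in each standard OPC library, 5 in all. Without the filter its log2 fold change was 2.47 (SE 0.54, edgeR adjusted p = 0.00115), with all 6 mild-hypo-OPC libraries above all 6 standard OPC libraries. Among the 8938 genes that passed the filter, 263 separated in this direction. The value of Ak4 ran from 2.21 to 3.29 when single libraries were left out and was 2.87 when libraries were thinned to the smallest total. With the log2 total count as a covariate it was 2.50 (edgeR adjusted p = 0.327).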
